A study of Mus musculus with 8 samples.

Results

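The genes described here are 10 genes of dense-core vesicles, chosen by name: the granins Chga, Chgb, Scg2, Scg3 and Vgf, the convertases Pcsk1 and Pcsk2, their binding proteins Pcsk1n and Scg5, and the carboxypeptidase gene Cpe. All 10 occurred among the 9229 genes of the authors' deposited table of cluster markers. Sensory neurons were dissociated from dorsal root ganglia of C57BL/6 mice aged 21 to 30 days, with 4 mice per pool. Living cells received an antibody against proteasome subunit β5 and were sorted into NMP-positive and NMP-negative cells, where NMP is the neuronal membrane proteasome. The 8 samples are 4 NMP-positive and 4 NMP-negative. Each set of 4 is named as sequencing lanes of 1 library, so neither population had a biological replicate. Both populations are listed with the same genotype and the same antibody labelling. The table does not say which population a cell came from, so the genes are described across 20 clusters of cells and not between the populations.

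Peptide hormones and neuropeptides are made as larger precursors and are packed in the trans-Golgi network into dense-core vesicles. Granins are acidic proteins that aggregate there and help to form the vesicle core, and several are themselves cut into peptides. Convertases cut precursors after pairs of basic residues, and carboxypeptidase E removes the basic residues left behind. Small and medium-sized sensory neurons that release calcitonin gene-related peptide (CGRP) and substance P are well known for such vesicles.

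The cluster names are the authors'. The 10 clusters with a neuron name held 40.8% of all cells. Another 28.6% of cells lay in the 3 clusters named Low.UMI (UMIs count transcript molecules), and 30.7% in the 7 named Unknown. In the Unknown clusters marker lists of other cell types were higher. Unknown.1 was endothelial-like (8 of 8 markers higher), Unknown.2 satellite-glia-like (10 of 10), Unknown.3 mural-like (7 of 7) and Unknown.4 Schwann-like (9 of 9). Unknown.5 and Unknown.6 were fibroblast-like (8 of 8 in each), and Unknown.488p was macrophage-like (10 of 10). Of 10 pan-neuronal markers, 4 in CGRP-z to 9 in CGRP-n were higher in the neuron clusters. Peptidergic.488p went in part against its name, with 3 of 6 peptidergic markers higher and 3 lower. CGRP-z had 2 of 6 higher and 1 lower, and Calca, the CGRP gene, was not among the higher ones.

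Higher and lower mean here that a gene's adjusted p in the authors' deposited table, for one cluster against all other cells, was under 0.05. Those p-values count cells as units, and the clusters were made from the same cells, so passing this threshold is a filter and not a test of a cluster. Depth and numbers of cells are not given, and no value here carries an error. No order of neighbouring clusters can thus be set against a spread. Heat.sen and CGRP-z were the smallest clusters, with 1.24 and 1.36% of all cells. The part of cluster size in the number of calls was not tested. Fold changes against all other cells were also put on 1 scale, the level relative to the mean of all cells. This is the mean level in a cluster plus the pseudocount of the fold change, divided by the same sum for all cells. A log2 relative level of 0 is the mean of all cells.

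In the 10 neuron clusters, 40 pairs of gene and cluster were higher and 7 lower. In the 7 Unknown clusters, 60 pairs were lower and 1 was higher. In the 3 Low.UMI clusters, 11 were higher and 5 lower. Of 200 possible pairs 140 were listed in the authors' deposited table. A pair can be missing because the level was close to that of the other cells, because its p exceeded 0.01 or because the gene was rare, so a missing pair is not an absent gene.

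**Figure D1:**
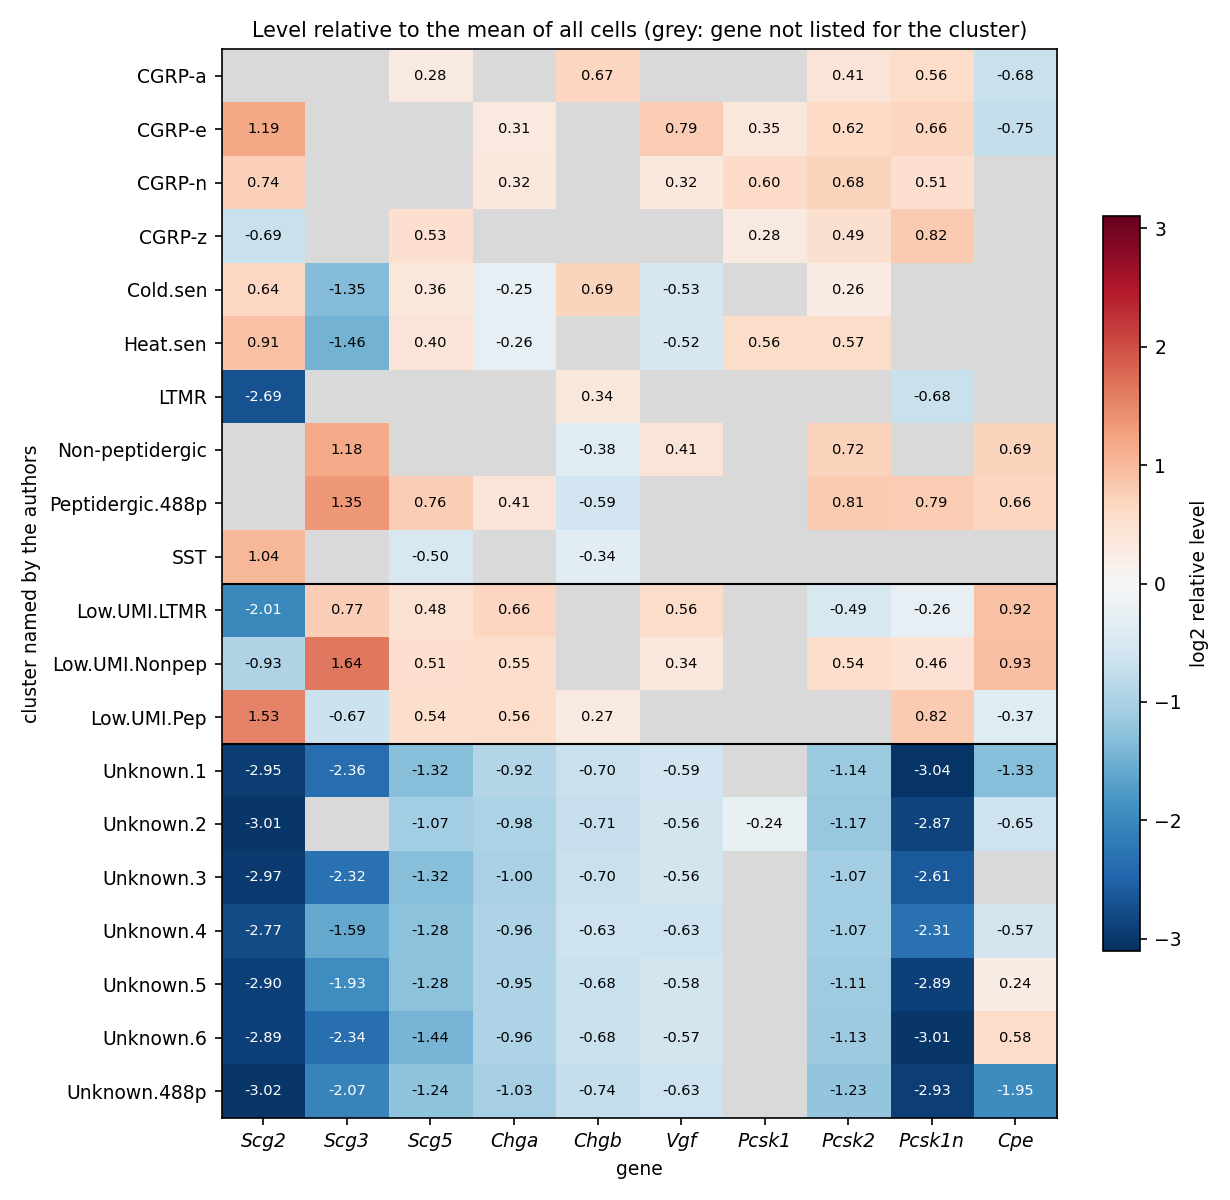
Log2 level relative to the mean of all cells, for the 10 genes (columns) in the 20 clusters (rows), with grey where the table lists no value. Scg2 ranged from -3.02 in Unknown.488p to 1.53 in Low.UMI.Pep, and Cpe had values above 0 in the fibroblast-like clusters Unknown.5 and Unknown.6.

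The CGRP clusters had 4 to 6 members higher and 0 lower. In CGRP-e these were Scg2, Chga, Vgf, Pcsk1, Pcsk2 and Pcsk1n, that is 6 of 10, where 9.77% of all genes were higher and 5.65% lower. CGRP-n had 6 of 10 higher, again Scg2, Chga, Vgf, Pcsk1, Pcsk2 and Pcsk1n, against 9.61% of all genes higher and 4.32% lower. In CGRP-a the 4 higher members were Scg5, Chgb, Pcsk2 and Pcsk1n, with 12.5% of all genes higher and 7.26% lower. CGRP-z had 4 higher, Scg5, Pcsk1, Pcsk2 and Pcsk1n, against 11.3% higher and 0.715% lower. The share of members that were higher was thus above the background of all 9229 genes in each of the 4 clusters. Many of those genes are not listed for a given cluster. In CGRP-e 6 of 7 listed members were higher, against 53.2% of listed genes. For CGRP-z it was 4 of 5, against 69.9%. Of the 10 pan-neuronal markers, 4 (CGRP-z) to 9 (CGRP-n) were higher in these clusters. Whether the excess is particular to vesicle genes or shared by other well-detected neuronal genes was not tested.

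Cold.sen and Heat.sen had 4 members higher each and shared Scg2, Scg5 and Pcsk2. In Cold.sen the remaining one was Chgb, and Chga and Vgf were lower (all genes: 11.0% higher, 5.44% lower). In Heat.sen the remaining one was Pcsk1, and 0 were lower (all genes: 12.6% higher, 1.18% lower). Non-peptidergic neurons had Scg3, Vgf, Pcsk2 and Cpe higher and Chgb lower, against 9.86% and 9.71% of all genes. Peptidergic.488p had 6 higher, Scg3, Scg5, Chga, Pcsk2, Pcsk1n and Cpe, and Chgb lower, against 7.05% and 13.8%.

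LTMR and SST stayed near the background. LTMR, the cluster of touch neurons, had Chgb higher and Scg2 and Pcsk1n lower, where 12.5% of all genes were higher and 8.46% lower. SST, the cluster of somatostatin itch neurons, had Scg2 higher and Chgb lower, where 12.5% were higher and 10.7% lower. Low.UMI.LTMR had Vgf higher and Scg2 and Pcsk2 lower, also near its background of 10.9% and 20.1%. Low.UMI.Nonpep had 6 higher, Scg3, Scg5, Chga, Vgf, Pcsk1n and Cpe, and Scg2 lower, against 10.9% and 21.0%. Low.UMI.Pep had Scg2, Chga, Chgb and Pcsk1n higher and Scg3 and Cpe lower, against 10.8% and 20.7%.

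The non-neuronal clusters had 8 or 9 of 10 members lower. The count was 9 in Unknown.1 (28.8% of all genes lower, 18.0% higher), in Unknown.2 (27.4% and 13.0%), in Unknown.4 (26.4% and 5.21%) and in Unknown.488p (33.0% and 9.91%). It was 8 in Unknown.3 (28.4% and 8.05%), Unknown.5 (20.4% and 9.67%) and Unknown.6 (25.5% and 7.39%). Cpe in Unknown.6 was the 1 higher pair. Over the listed members, the middle log2 fold change (median) in the authors' deposited table ran from -1.41 in Unknown.1 to -1.04 in Unknown.2, beside -0.31 and -0.33 for all genes listed there.

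**Figure D2:**
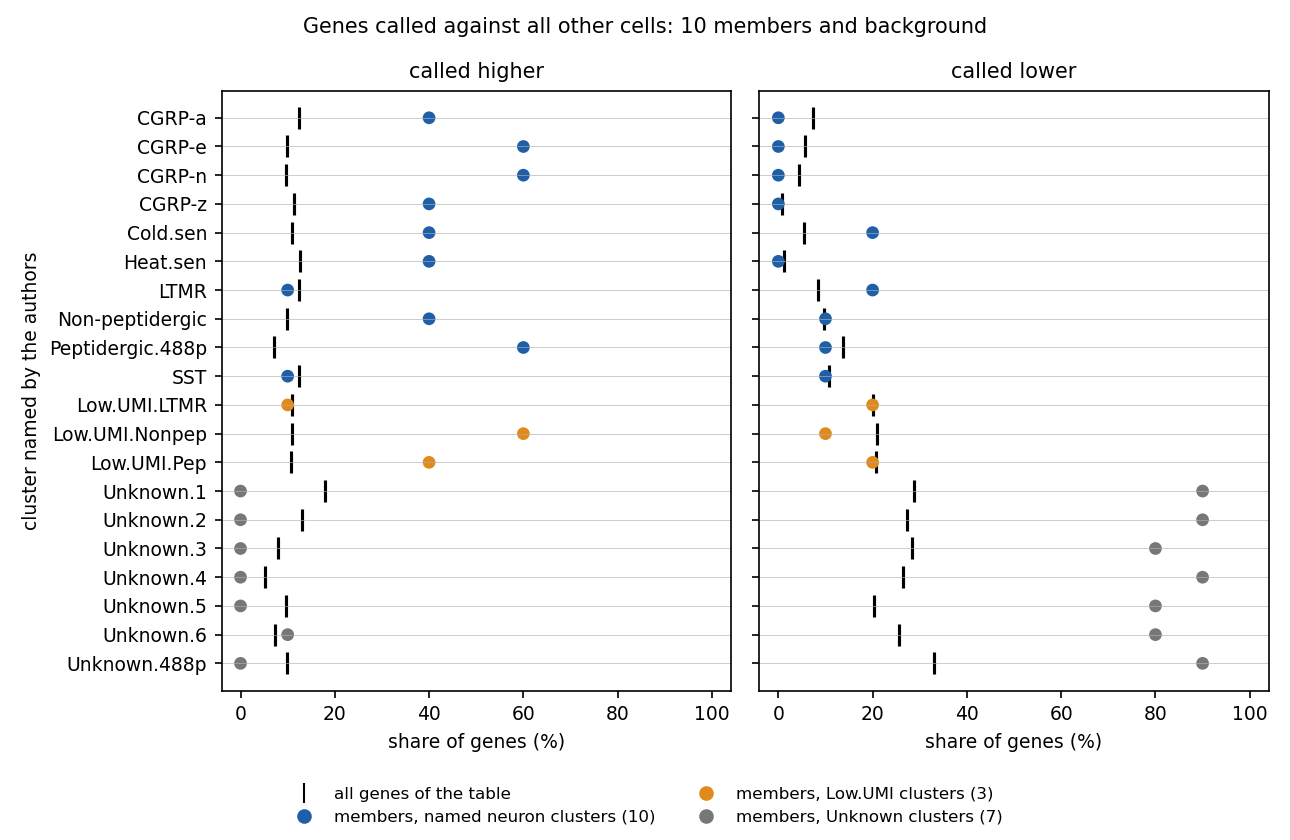
Share of the 10 members (points) and of all 9229 genes (black ticks) that were higher (left) or lower (right) in each cluster, in percent. In the 7 Unknown clusters 8 or 9 members were lower, and LTMR, SST and Low.UMI.LTMR lie next to the ticks on the left.

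The promoters of these genes were also searched for a known element. Granin and convertase promoters are known for the cyclic AMP response element, the binding site of CREB. A choice of genes by name from these families is thus not independent of the element. RefSeq windows from 250 bases before to 50 after the start (GRCm38.p6) were found for 8 members, all but Vgf and Cpe. The full element TGACGTCA, which reads the same on both strands, occurred in 3 of the 8, in Scg2, Chgb and Pcsk1, and in 1.79% of all 32851 windows. The shorter 5-base form, TGACG on either strand, which every full element also contains, occurred in 7 of the 8, all but Pcsk1n, and in 20.8% of all windows. The 30 bases around each full element are shown in gene orientation with the element in capitals. They lie at chr1:79440076-79440105 (minus strand), chr2:132781559-132781588 (plus strand) and chr13:75089768-75089797 (plus strand), and the element begins 68, 72 and 78 bases before the start.
Scg2: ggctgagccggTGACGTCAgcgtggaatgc
Chgb: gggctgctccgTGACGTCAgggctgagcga
Pcsk1: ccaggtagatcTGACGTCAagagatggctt
A match is only a description of these letters, and binding was not measured.

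Scg2, the precursor of secretoneurin, had a highest relative level 23.4 times its lowest. Such ratios contain the pseudocount and cannot be ranked between genes of different mean level. Its highest log2 fold change was in Low.UMI.Pep, where the authors' deposited table gave 2.06, rank 3 of 3027 listed genes, with the transcript in 75.9% of cells. Among neuron clusters it was higher in CGRP-e (log2 fold change 1.28), SST (1.14), Heat.sen (0.92), CGRP-n (0.78) and Cold.sen (0.68) in the authors' deposited table. In all 5 of these at least 99.6% of cells held the transcript. These 5 are thus 2 of the 4 CGRP clusters and 3 clusters in which Calca, the CGRP gene, was lower.

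LTMR stood at the other end. There Scg2 had a log2 fold change of -2.74 in the authors' deposited table, although it was found in 52.8% of LTMR cells and 52.4% of other cells. Its relative level was 0.155 times the mean of all cells in LTMR and 0.123 to 0.147 times in the non-neuronal clusters, where 6.1 to 7.9% of cells held it in the authors' deposited table. The pseudocount sets a floor under such low relative levels, so they do not show that LTMR and the non-neuronal clusters were alike. CGRP-z combined a transcript in 100.0% of cells with a log2 fold change of -0.69 in the authors' deposited table, which did not pass the filter. In Low.UMI.LTMR and Low.UMI.Nonpep Scg2 was lower, at -2.04 and -1.02 in the authors' deposited table.

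For clusters without an entry, the remaining cells still fix an average. Scg2 had no entry in CGRP-a, Non-peptidergic and Peptidergic.488p. Together these must have held the transcript in 86.9% of cells at a log2 relative level of -0.75, a mean level below that of all cells despite the missing calls.

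Scg3, a granin that binds chromogranin A and the vesicle membrane, went the other way in several clusters. It was highest in Low.UMI.Nonpep, with a log2 fold change of 2.11 in the authors' deposited table, rank 3 of 3059, and in 79.2% of cells. It was also higher in Peptidergic.488p (1.42) and Non-peptidergic (1.29) in the authors' deposited table, with 93.5 and 99.8% of cells. It was lower in Low.UMI.Pep, at -0.75 in the authors' deposited table and in 33.7% of cells. In Cold.sen and Heat.sen, where Scg2 was higher, the authors' deposited table gave -1.39 and -1.47 for Scg3, both short of the filter, though 96.2 and 93.9% of cells held the transcript.

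Cpe, which trims the ends of cut precursors, was higher in the same 3 neuron and Low.UMI clusters as Scg3. The authors' deposited table gave 1.11 in Low.UMI.Nonpep, 0.74 in Non-peptidergic and 0.68 in Peptidergic.488p, all higher. In Low.UMI.Nonpep, however, Cpe was in 57.9% of cells against 67.1% of other cells in the authors' deposited table. In Low.UMI.Pep Cpe was lower, at -0.42 in the authors' deposited table and in 30.2% of cells. In CGRP-a and CGRP-e, neurons rich in peptide precursors, the authors' deposited table gave -0.73 and -0.78, neither past the filter, with Cpe in 99.1 and 99.7% of cells. Its relative level in CGRP-e was 0.596 times the mean of all cells and in Non-peptidergic 1.61 times.

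**Figure D3:**
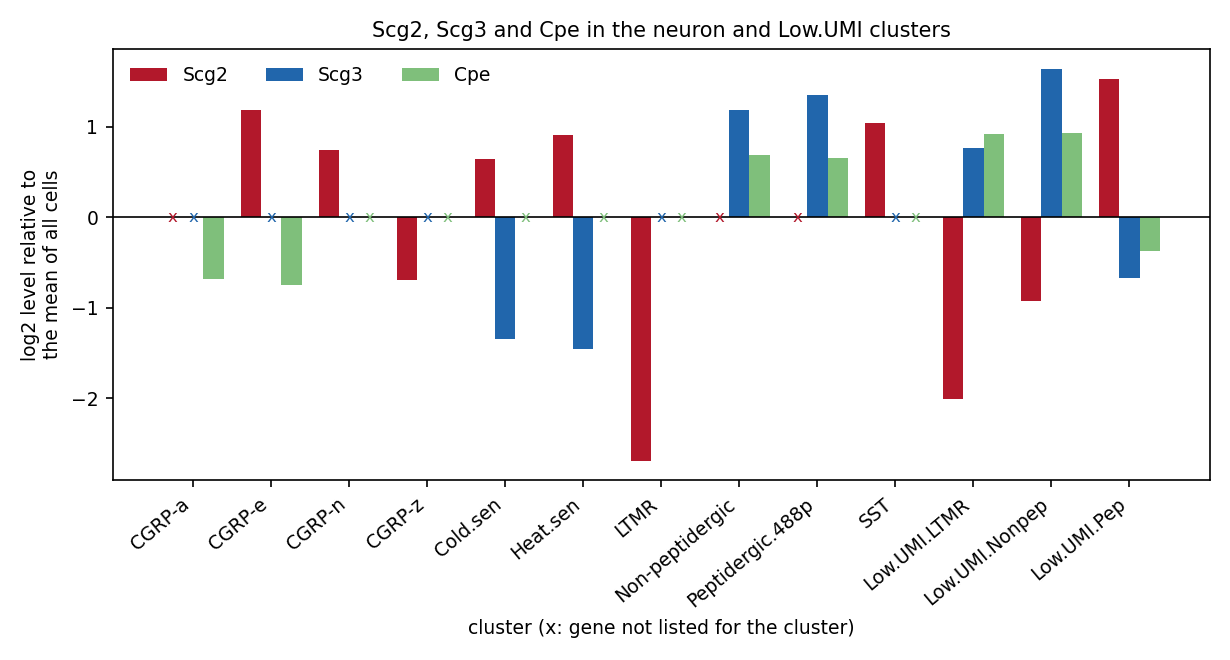
Log2 level relative to the mean of all cells for Scg2, Scg3 and Cpe in the neuron and Low.UMI clusters, with a cross where the gene is not listed. Scg3 and Cpe have bars above 0 in Non-peptidergic, Peptidergic.488p, Low.UMI.LTMR and Low.UMI.Nonpep, and in Low.UMI.Pep Scg2 is at 1.53 with Scg3 at -0.67 and Cpe at -0.37.

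Outside the neurons the share of cells with Cpe differed widely between clusters. It was in 86.5% of Unknown.6 cells (0.59, higher), 68.9% of Unknown.5 (0.25, not past the filter) and 52.4% of Unknown.2 (-0.70, lower) in the authors' deposited table. It was lower in the endothelial-like Unknown.1 (21.8% of cells) and reached its lowest share in the macrophage-like Unknown.488p (7.5%, -1.97) in the authors' deposited table. Both fibroblast-like clusters thus had Cpe in a larger share of cells than all cells together (66.1%), while every other member listed there was in at most 36.3% of their cells.

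Chga and Chgb, the genes of chromogranin A and B, differed from each other across neurons. Chgb was higher in CGRP-a (0.74), Cold.sen (0.73), LTMR (0.35) and Low.UMI.Pep (0.32) in the authors' deposited table. In Low.UMI.Pep, however, Chgb was in 13.5% of cells against 44.0% of other cells in the authors' deposited table. It was lower in Peptidergic.488p (-0.60), Non-peptidergic (-0.40) and SST (-0.35) in the authors' deposited table. LTMR, where Scg2 was lower, held Chgb in 99.7% of cells, and Peptidergic.488p in 21.6%, per the authors' deposited table. In SST and Non-peptidergic 80.0 and 87.4% of cells held it, more than the 37.2 and 37.0% of other cells in the authors' deposited table, although the fold change was below 0.

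Chga was higher in 3 of the neuron clusters. The authors' deposited table gave 0.42 in Peptidergic.488p, 0.33 in CGRP-n and 0.32 in CGRP-e. In Cold.sen Chga was lower, at -0.26 in the authors' deposited table, although it was in 84.0% of cells against 42.8% of other cells. The 5 clusters without an entry (CGRP-a, CGRP-z, LTMR, Non-peptidergic and SST) must on average have held it in 95.0% of cells at a log2 relative level of -0.06. By fold change Chga and Chgb thus went opposite ways in Peptidergic.488p and in Cold.sen. By detection they did so in Peptidergic.488p but not in Cold.sen, where both were in more cells than elsewhere.

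The size of these fold changes depends on the pseudocount. Chgb was listed at 0.0% of Unknown.488p cells, that is below 0.05% after rounding, which ties the scale of this gene. Taken as 0 there, its mean over all cells was 0.676 pseudocounts, with 1.70 in Cold.sen, 1.67 in CGRP-a, 1.12 in LTMR and 0.116 in Peptidergic.488p. Cold.sen was then 14.6 times Peptidergic.488p without the pseudocount and 2.41 times with it. For the other members only a lower limit of the mean follows, since no level can be below 0: at least 7.12 pseudocounts for Scg2, 7.2 for Pcsk1n, 4.14 for Scg3 and 0.179 for Pcsk1. The small negative fold changes of Chga, Chgb, Vgf and Pcsk1 in non-neuronal clusters therefore cannot be ranked against the larger ones of Scg2 and Pcsk1n.

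Vgf, a precursor named for its induction by nerve growth factor, had its highest fold change in CGRP-e. In the authors' deposited table it was in 90.9% of CGRP-e cells (0.84), 97.8% of Non-peptidergic (0.43) and 72.5% of CGRP-n cells (0.34), each higher. Cold.sen held it in 21.5% of cells (-0.55, lower) and Heat.sen in 23.5% (-0.52, not past the filter), in the authors' deposited table. These 2 clusters, which had Scg2 higher, fell below the 32.5% of all cells that held Vgf.

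Of the convertases, Pcsk2 had entries in 17 clusters and Pcsk1 in 5. Pcsk2 was higher in 8 of the 10 neuron clusters, all but LTMR and SST, where it had no entry. Its log2 fold changes there ran, in the authors' deposited table, from 0.27 in Cold.sen to 0.85 in Peptidergic.488p, with Pcsk2 in 63.2% of Peptidergic.488p cells and 87.2 to 100.0% of cells of the other 7. LTMR, SST and Low.UMI.Pep, the 3 without an entry, must together have held it in 42.1% of cells at a log2 relative level of -0.16. In Low.UMI.LTMR it was lower, in 8.7% of cells (-0.50 in the authors' deposited table).

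Pcsk1 was higher in CGRP-n (0.63), Heat.sen (0.56), CGRP-e (0.37) and CGRP-z (0.29) in the authors' deposited table. Those clusters held it in 79.5, 70.4, 78.9 and 62.6% of cells, against 20.8 to 22.9% of other cells in the authors' deposited table. Unknown.2, the satellite-glia-like cluster, had it in 0.3% of cells (-0.26, lower) in the authors' deposited table. In the other 15 clusters together 18.8% of cells must have held it, at a log2 relative level of -0.05, so cells with Pcsk1 were not confined to the clusters with an entry. In all 4 clusters with Pcsk1 higher, Pcsk2 was higher as well.

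Both partners of the convertases were also found in many clusters. Pcsk1n, whose product proSAAS inhibits the Pcsk1 convertase, was the most widely found member, in 76.2% of all cells. It was higher in the 4 CGRP clusters, Peptidergic.488p, Low.UMI.Pep and Low.UMI.Nonpep, with log2 fold changes from 0.53 to 1.02 in the authors' deposited table. In LTMR Pcsk1n was lower (-0.70 in the authors' deposited table) although 100.0% of cells held it. In Heat.sen, where Pcsk1 was higher, Pcsk1n had no entry. Cold.sen, Heat.sen, Non-peptidergic and SST, the 4 clusters without one, must have averaged 99.6% of cells and a log2 relative level of 0.18.

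Scg5, the gene of 7B2, a chaperone that the Pcsk2 convertase needs to mature, was higher in Peptidergic.488p (0.79), CGRP-z (0.54), Heat.sen (0.40), Cold.sen (0.38) and CGRP-a (0.30) in the authors' deposited table. Pcsk2 was higher in each of these 5. In Low.UMI.Nonpep Scg5 was higher as well (0.59 in the authors' deposited table), and Pcsk2 was listed there at 0.63, not past the filter. In CGRP-e, CGRP-n and Non-peptidergic, where Pcsk2 was also higher, Scg5 had no entry. Those 3 clusters and LTMR must have averaged 99.4% of cells and a log2 relative level of 0.09. In SST the authors' deposited table gave -0.53 for Scg5, not past the filter, with the transcript in 94.1% of cells.

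Between the non-neuronal clusters the members differed in how many cells held them. In the authors' deposited table Chga, Chgb, Vgf and Pcsk2 were each in 0.0 to 4.8% of cells there. Scg5 was in 0.7 to 5.8% of cells of 6 of them and in 16.3% of the satellite-glia-like Unknown.2 in the authors' deposited table. Scg3 was in 10.7 to 21.1% of the 6 that list it and Pcsk1n in 21.2 to 43.5% of all 7 in the authors' deposited table. Neuronal markers were found there too, from 1.8 to 6.3% for Rbfox3, a neuronal splicing factor, up to 44.5 to 71.8% for Uchl1, an abundant neuronal enzyme, in the authors' deposited table. All 10 markers of that list had cells with the transcript in each Unknown cluster, and their part in the shares of Pcsk1n and Scg3 was not tested.

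**Figure D4:**
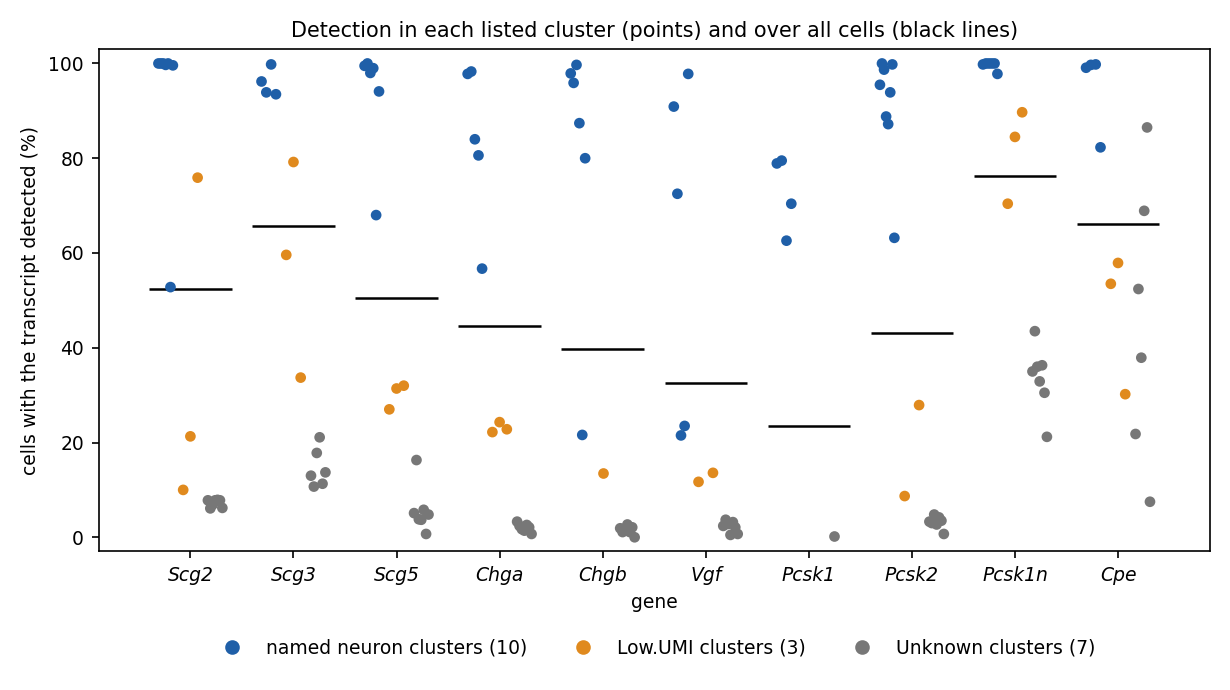
Percentage of cells with the transcript in each listed cluster (points, coloured by kind of cluster) and over all cells (black lines) for the 10 genes. Grey points of Chga, Chgb, Vgf and Pcsk2 lie at or below 4.8%, those of Pcsk1n between 21.2 and 43.5%, and those of Cpe between 7.5 and 86.5%.

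In Low.UMI clusters, fold change and detection often went apart. Of the 11 pairs that were higher there, 7 had fewer cells with the transcript, in percent, than the remaining cells had. Chga in Low.UMI.Pep, for example, had a log2 fold change of 0.68 in the authors' deposited table but was in 22.8% of cells against 48.2%. The 4 pairs in which both rose were Scg2 and Pcsk1n in Low.UMI.Pep and Scg3 and Pcsk1n in Low.UMI.Nonpep. Over all genes 4.66% of the 3005 higher pairs of these clusters had both, 140 pairs. Scg2 in Low.UMI.Pep and Scg3 in Low.UMI.Nonpep were therefore also above other cells by detection, with 75.9% against 48.6% and 79.2% against 63.9% in the authors' deposited table.

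Named neuron clusters had the reverse mismatch. All 40 higher pairs there were also found in more cells, as were all 10033 higher pairs over all genes. Of the 7 lower pairs, 5 were nevertheless found in more cells of the cluster than of the others, against 46.5% over all genes. They were Scg2 and Pcsk1n in LTMR, Chga in Cold.sen, and Chgb in Non-peptidergic and SST. Both lower by fold change and by detection were Chgb in Peptidergic.488p and Vgf in Cold.sen. The table gives no number of molecules per cell, and the part of depth in these mismatches was not tested.

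**Figure D5:**
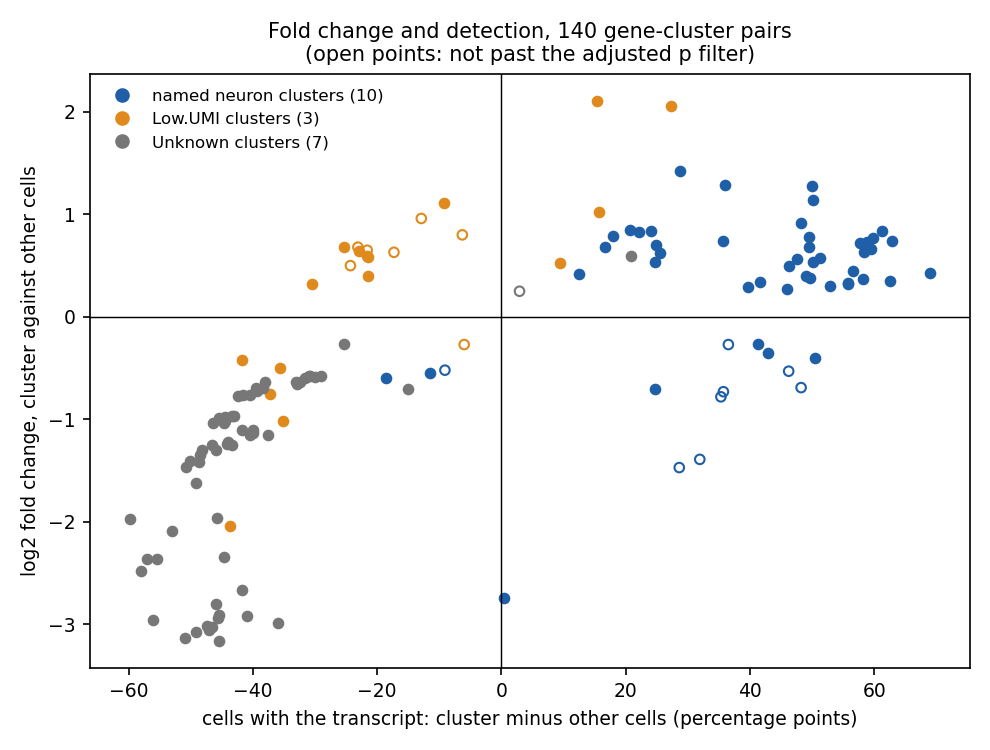
Log2 fold change (vertical) against the difference in percentage of cells with the transcript, cluster minus other cells (horizontal), for 140 pairs of gene and cluster, with open points for pairs not past the filter. Orange points at the upper left are the Low.UMI pairs with a positive fold change and fewer cells, and the blue point at -2.74 is Scg2 in LTMR.

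Other genes of the regulated secretory pathway were taken from a list of 40, of which 32 occurred in the table. In neuron clusters the number that was higher ran from 7 of 40 in LTMR and Peptidergic.488p (12.5 and 7.05% of all genes) to 15 of 40 in CGRP-e (9.77% of all genes). In non-neuronal clusters 16 of 40 in Unknown.5 (20.4% of all genes) to 23 of 40 in Unknown.2 (27.4% of all genes) were lower. The 8 with the widest range of fold change are given here. Cadps, which primes dense-core vesicles for release, was higher in 8 neuron clusters, up to 1.45 in CGRP-e in the authors' deposited table. Syt4, a vesicle synaptotagmin, was higher in 6, led by CGRP-a (1.50), and Rab3a, a vesicle GTPase, in 8, up to 0.62 in LTMR, in the authors' deposited table. Snap25, a membrane fusion protein, was higher in 7 and led by Cold.sen (1.40) in the authors' deposited table.

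Pam, the enzyme that amidates the ends of peptides such as CGRP and substance P, differed in part from Cpe. The authors' deposited table gave 1.78 in CGRP-z, 1.34 in Heat.sen, 1.18 in CGRP-e, 1.01 in Cold.sen, 0.93 in CGRP-n and 0.45 in CGRP-a, all higher. In Peptidergic.488p (-0.98, 38.5% of cells) and Low.UMI.Nonpep (14.5% of cells) Pam was lower in the authors' deposited table, while Cpe was higher in both. Rab27b, a GTPase of vesicle docking, was higher in Non-peptidergic (1.69), Low.UMI.Nonpep (1.42) and Peptidergic.488p (0.74) in the authors' deposited table, the 3 clusters that had both Scg3 and Cpe higher. Resp18, a protein of endocrine and neuronal vesicles, was highest in SST (2.01, in 98.9% of cells) and lower in Non-peptidergic (-1.39) in the authors' deposited table. Ctsl, the gene of the protease cathepsin L, was highest in Low.UMI.Nonpep (1.39) and lower in SST (-1.20) in the authors' deposited table.

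Peptide precursors, the cargo of these vesicles, came from a list of 18 genes, of which 14 occurred in the table. In CGRP-e 8 of 18 precursors and 6 members were higher, where 9.77% of all genes were, and in LTMR 0 and 1, where 12.5% were. The 2 counts did not always go together. Peptidergic.488p had 6 members higher, but 3 precursors higher and 5 lower (all genes: 7.05 and 13.8%). Low.UMI.Nonpep had 6 members higher, but 2 precursors higher and 3 lower (all genes: 10.9 and 21.0%). SST had 4 precursors higher and 7 lower (all genes: 12.5 and 10.7%), and among the members Scg2 higher and Chgb lower. Its precursors Nppb (4.11), Sst (3.43) and Nts (3.16) were in at least 97.8% of SST cells in the authors' deposited table, while Calca was at -4.43 there. In Cold.sen, where Scg2 and Chgb were higher, Calca was lower (-3.42) and Tac1, the substance P gene, higher (0.60) in the authors' deposited table. The precursors that were higher in CGRP-e, SST and Cold.sen overlapped in part. Tac1 and Gal were higher in both CGRP-e and Cold.sen, and Bdnf in both CGRP-e and SST.

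The members were also compared with each other over clusters, as a description. All clusters come from the same libraries and differ in depth. Over all 20 clusters, the 36 pairs of members listed together in at least 6 clusters had a median Pearson r of 0.74 for log2 relative levels. Each pair rested only on the 9 to 14 clusters that list both genes, and no pair included Pcsk1. Within the 13 neuron and Low.UMI clusters, a choice made after seeing the data, 18 pairs remained with a median r of 0.22 over 6 or 7 clusters, and 8 of them were below 0. Over all 20 clusters the same 18 pairs had a median r of 0.85. Within these neuron and Low.UMI clusters, Pcsk2 and Pcsk1n had r = 0.91 (n = 7 clusters), Scg2 and Pcsk1n 0.84 (n = 7) and Chga and Vgf 0.88 (n = 6). For Pcsk2 and Pcsk1n only Low.UMI.LTMR lay below 0, at log2 relative levels of -0.49 and -0.26, the latter not past the filter. The r of 0.91 thus leans on that cluster. Chga and Pcsk1n had r = -0.56 (n = 6) and Scg2 and Chga -0.45 (n = 7).

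Of all genes listed together with a member in at least 15 clusters, those most like it by Pearson r of log2 fold change were found for 5 members. For Scg2 they were Ptprn (0.948, of 305 genes), a membrane protein of dense-core vesicles, and Map7 (0.940), both over 15 clusters. Pcsk2 was closest to Basp1 (0.980) and Rab3a (0.979) among 303 genes. Pcsk1n was closest to Fgf13 (0.974) and Arhgdig (0.964) among 182. Scg5 was closest to Arhgdig (0.940, over 16 clusters) and Tuba1a (0.908) among 167, and Chga to Ctsl (0.913) and Arhgdig (0.897) among 69. The other 5 members were listed in too few clusters. These coefficients are a description over neuronal and non-neuronal clusters together.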

How the data were processed

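Droplet single-cell libraries with 3′ end counting were made from sorted NMP-positive and NMP-negative cells, per the labels' protocols, after 30 min with the primary and 40 min with the secondary antibody. The extraction protocol names an isolation of nuclei, so whether cells or nuclei were loaded is unclear. Seurat is named in the submitters' processing notes. Not given in the sources used here are the aligner, genome build, normalization, cell filters, clustering settings, test, pseudocount and any step against doublets. The table the authors deposited holds, per the file headers, p-values, log2 fold changes and detection, which is the fraction of cells with a transcript in each cluster and in all other cells. It holds 56694 pairs, with no p above 0.01, no absolute log2 fold change below 0.25 and at least 10% of cells in the cluster or the others. The adjusted p-value deposited is the p-value times 32285.

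Cluster shares w were solved by least squares from 6742 genes whose fractions differ by at least 5 percentage points, since pct2 + w × (pct1 - pct2), with pct1 and pct2 the fractions in the cluster and the other cells, is the same for every cluster of a gene (residual 0.0256 percentage points). They summed to 100.01% and were scaled to their sum. With R the fold change, the relative level is R / (1 - w + w × R). Its weighted mean must be 1, and was 0.9999 to 1.0001 in the 34 genes listed in all 20 clusters. Clusters without an entry were averaged from the remainder. The steps were tested on simulated data. Fractions are printed as percentages. Python 3.11.15, numpy 2.4.6 and pandas 2.3.3 were used.

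The members, lists and rules were chosen with earlier results of these data known. Named were the 10 members, for each the 2 most correlated genes, the 8 pathway genes of widest range (Pam is among them) and precursors with a log2 fold change of at least 1. Other pathway genes in the closing section were chosen after their values were seen. No sample could be told apart in the table, so populations were not compared and cell barcodes shared between libraries were not analysed here.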

Additional observations from a re-analysis of the deposited data

How the results depend on the processing

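A minimum size moved the counts of calls most. With log2 fold changes of at least 0.5, the 40 higher pairs in neuron clusters became 26, and with at least 1 they became 4. At that size the Low.UMI clusters had 4 of 11 and the Unknown clusters 0 of 1. For lower pairs, neuron clusters went from 7 to 4 at -0.5 or below and to 1 at -1 or below, where the Low.UMI clusters had 2 of 5 and the Unknown clusters 39 of 60. An adjusted p under 1e-10 left 3 of the 7 lower pairs in neuron clusters. Asking for detection in the same direction left 2 of those 7, and 4 of the 11 higher Low.UMI pairs. The other summed counts stayed within 1.5 times. Relative levels moved by at most 4.1e-05 (log2) with shares from genes differing by at least 20 points. The median r between members was 0.74, with 0.75 to 0.77 for Spearman's coefficient, deposited fold changes and no Low.UMI clusters, and 0.22 within neuron and Low.UMI clusters, where the same 18 pairs had 0.85 over all clusters (both added after seeing the data). No pair shared 6 of the 10 neuron clusters, so that alternative gave no value. As a share of genes listed for a cluster, the background ran from 4.41% (lower in CGRP-z) to 70.8% (higher in Heat.sen). This basis changes the reading of 2 clusters. In Heat.sen 4 of 7 listed members were higher, which is not above the 70.8% of listed genes. In Cold.sen 4 of 7 were higher, close to the 53.1% of listed genes.

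No paired analysis was possible because the table has no sample columns. It also gives no value without a library. Depth per cell is unknown.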

Other observations

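Further genes of the pathway list, chosen after their values were seen, were higher in non-neuronal clusters, in neuron clusters or in both. Pcsk5, a convertase of the secretory pathway, was higher in the satellite-glia-like Unknown.2 (1.79, in 67.1% of cells) and the fibroblast-like Unknown.5 (1.02, in 46.8%) in the authors' deposited table. In SST it was in 1.3% of cells and lower (-0.59), in the authors' deposited table. Qpct, which cyclizes the first glutamine of peptides, was higher in Unknown.5 (0.81, in 27.4% of cells) and Unknown.6 (0.73, 22.0%) and in CGRP-n (0.35, 53.0%) and CGRP-z (0.31, 72.0%) in the authors' deposited table. Ptprn, the gene most like Scg2, was higher in SST (1.17), the 4 CGRP clusters (0.44 to 0.89) and Peptidergic.488p (0.71) and lower in Non-peptidergic (-1.05) in the authors' deposited table. Its relative Ptprn2 was higher in the 4 CGRP clusters (0.38 to 1.40), Heat.sen (1.24) and Cold.sen (0.82) in the authors' deposited table.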
